A study of Mus musculus with 12 samples.

Results

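The 7 genes described here mark cholinergic neurons and motor neurons, and they were picked by name from the 55418 genes of the count table. Chat, Slc18a3, Slc5a7, and Ache make, load, recycle, and break down acetylcholine. Isl1, Mnx1, and Prph are genes of motor neurons. All 7 were found in the table under their symbols, and 6 of 7 passed the filter on low counts in each of the 5 comparisons with all their mice. Mnx1 did not.

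Acetylcholine is made from choline and acetyl-CoA by choline acetyltransferase (Chat), and it is loaded into synaptic vesicles by the vesicular acetylcholine transporter (Slc18a3). After release it is split by acetylcholinesterase (Ache), and the high-affinity choline transporter (Slc5a7) returns the choline to the terminal. In the brainstem, cholinergic neurons include the motor neurons of the cranial nerve nuclei, the preganglionic parasympathetic neurons, and the laterodorsal and pedunculopontine tegmental nuclei of the pons. Isl1 is a LIM homeobox factor of developing cranial and spinal motor neurons, and Mnx1 is a homeobox factor of somatic motor neurons. Prph encodes peripherin, an intermediate filament of neurons whose axons leave the central nervous system.

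RNA came from brainstem (medulla and pons, by the study's methods) of outbred CFW mice at P15, with 1 library per mouse. Each of the 4 groups held 3 mice: females given saline, females given morphine, males given saline, and males given morphine. Pups of mixed litters had received repeated subcutaneous morphine sulfate or saline from shortly after birth, and collection followed the last injection by hours, so that the morphine mice were in spontaneous withdrawal. The labels do not give the dam of any mouse, and the deposited extraction text names spinal cord where the tissue label names brainstem.

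Levels are in CPM, the counts of a gene scaled to a common library size, after TMM normalization. Between 27850565 and 48097947 counts per library fell on genes. The library labelled morphine male 6 had Xist at 379.9 CPM and Ddx3y at 12.8 CPM. In the other 5 libraries labelled male, Xist lay between 0.398 and 2.71 CPM and Ddx3y between 118 and 199 CPM. In the libraries labelled female, Xist lay between 546.8 and 970.5 CPM and Ddx3y between 0.0576 and 0.729 CPM. The library labelled morphine male 6 thus lay between the labelled sexes in both genes, and the reason was not tested. It was kept in its labelled group, and the fits were also run without it. Summed over 6 genes, markers of pontine and medullary monoamine neurons lay between 45.8 and 90.1 CPM. The 9 posterior Hox genes of the thoracic and lumbar cord summed to between 0.119 and 1.52 CPM. The 6 forebrain genes summed to between 8.46 and 14.3 CPM, of which Neurod6 made up 7.02 to 13.2 CPM. Lhx8 and Nkx2-1, factors of forebrain cholinergic neurons, did not exceed 0.288 and 0.0865 CPM. Libraries also differed in the balance of GC-rich and GC-poor genes. This balance, the median log2 deviation of the 10% of genes richest in GC minus that of the 10% poorest in GC, was 0.91 and 1.18 in saline males 1 and 2, -1.15 in saline male 3, and between -0.67 and 0.56 in the other 9 libraries.

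The cholinergic genes were present at unequal levels. Per kilobase of exon, Ache had a mean of 22.9 ± 8.14 CPM (SD, n = 12), Slc5a7 of 11.3 ± 2.12, Slc18a3 of 2.72 ± 1.04, and Chat of 2.11 ± 0.402. Ache exceeded Slc5a7 in 11 of 12 libraries, and Slc18a3 exceeded Chat in 9 of 12, so that the level ranges of the last pair overlapped. Among the motor neuron genes, Prph had a mean of 9.51 ± 3.56 CPM per kilobase, Isl1 of 0.455 ± 0.128, and Mnx1 of 0.0816 ± 0.0534 (SD, n = 12). Slc5a7 exceeded Prph in 8 of 12 libraries. The order Prph, Slc18a3 and the order Chat, Isl1, Mnx1 held in 12 of 12 libraries. With median transcript length in place of exon length, 4 of the 7 genes kept their rank, and Chat moved from rank 5 to rank 3.

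The genes lie on 6 separate stretches of the genome, since Slc18a3 (chr14:32462438-32464850, minus strand, GRCm38) sits within Chat (chr14:32408203-32465989, minus strand), in intronic sequence. The pair shared 0 bp of exon in GENCODE M21. Slc5a7 lies at chr17:54273590-54299034 on the minus strand and Ache at chr5:137287519-137294466 on the plus strand. Ache shares 98 bp, 2.1% of its exons, with the long non-coding gene Gm42456 on the opposite strand, so reads there cannot be assigned without strand. Isl1 lies at chr13:116298281-116309689 and Mnx1 at chr5:29473034-29478470, both on the minus strand, and Prph lies at chr15:99055174-99058978 on the plus strand.

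The bases before the RefSeq start of 5 members are shown because 3 of them (Slc18a3, Ache, and Prph) had the highest correlations among mice, Chat shares its locus with Slc18a3 and had lower positive ones, and Slc5a7 had negative ones with all 3. They are from RefSeq on GRCm38.p6, 5′ to 3′ on the strand of the gene, and cover chr14:32464851-32465100, minus strand, chr5:137288058-137288253, plus strand, chr15:99054924-99055173, plus strand, chr14:32465990-32466159, minus strand, and chr17:54299035-54299284, minus strand. Bases in exons of the member were left out. For Ache the RefSeq start lies downstream of the GENCODE start, so that the printed stretch is inside the GENCODE span of the gene, outside its exons. All 7 members had an entry. Capitals mark matches on either strand to the GC box, GGGCGG, the TATA box, TATAAA, the cAMP response element core, TGACGT, and the CAAT box motif CCAAT, where neighbouring matches may overlap.
Slc18a3: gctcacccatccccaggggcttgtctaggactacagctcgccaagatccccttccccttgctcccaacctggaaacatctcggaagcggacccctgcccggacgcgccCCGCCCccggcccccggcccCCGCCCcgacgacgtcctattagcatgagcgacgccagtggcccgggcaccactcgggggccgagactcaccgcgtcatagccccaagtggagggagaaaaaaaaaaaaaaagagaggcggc
Ache: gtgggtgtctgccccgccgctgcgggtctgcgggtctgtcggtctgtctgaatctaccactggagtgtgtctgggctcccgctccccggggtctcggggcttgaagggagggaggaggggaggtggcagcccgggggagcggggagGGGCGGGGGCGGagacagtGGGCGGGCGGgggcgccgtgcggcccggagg
Prph: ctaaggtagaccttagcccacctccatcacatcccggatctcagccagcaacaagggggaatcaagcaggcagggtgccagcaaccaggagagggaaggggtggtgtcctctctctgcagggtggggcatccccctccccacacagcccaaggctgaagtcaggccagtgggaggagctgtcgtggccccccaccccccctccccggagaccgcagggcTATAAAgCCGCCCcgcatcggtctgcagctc
Chat: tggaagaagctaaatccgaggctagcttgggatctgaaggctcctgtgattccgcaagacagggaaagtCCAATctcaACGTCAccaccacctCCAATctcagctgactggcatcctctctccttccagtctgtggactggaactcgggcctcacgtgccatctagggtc
Slc5a7: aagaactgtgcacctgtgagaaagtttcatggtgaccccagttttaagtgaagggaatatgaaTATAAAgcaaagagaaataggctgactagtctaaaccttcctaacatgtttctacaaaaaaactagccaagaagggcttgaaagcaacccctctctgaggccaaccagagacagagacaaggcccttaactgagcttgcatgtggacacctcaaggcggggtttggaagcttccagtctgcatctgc
The sequence before Slc18a3 held 2 matches to GGGCGG, that before Ache held 4, and that before Prph held 1, beside a TATAAA. Chat had 0 matches to GGGCGG, 1 to TGACGT, and 2 to CCAAT, and Slc5a7 had 1 TATAAA and 0 of the other motifs. Of all 32851 promoters, 32.7% held GGGCGG, 12.4% TATAAA, 6.47% TGACGT, and 33.8% CCAAT. These shares are over the full 250 bases, whereas matches of the members were counted outside their exons, in 170 bases for Chat and 196 for Ache. GC content of the 250 bases before the start was 73.6% for Ache, 66.0% for Slc18a3, 65.2% for Prph, 54.8% for Chat, and 45.6% for Slc5a7. For the members not shown it was 71.2% (Isl1) and 66.4% (Mnx1). Among mice, Isl1 had a Pearson r of -0.62, -0.67, and -0.53 with Slc18a3, Ache, and Prph, and Mnx1 of -0.17, -0.31, and -0.20. Isl1 held 0 matches to GGGCGG and Mnx1 held 1. These matches describe the letters only.

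The first question was whether the members differed between morphine and saline mice of both sexes. Chat ranged from 7.31 to 13.0 CPM with a median of 9.93 in the 6 morphine mice, and from 7.70 to 12.4 CPM with a median of 9.90 in the 6 saline mice. Slc18a3 ranged from 4.23 to 7.56 CPM (median 6.26) in morphine mice and from 3.77 to 12.0 CPM (median 5.68) in saline mice. Slc5a7 ranged from 51.8 to 75.1 CPM (median 63.5) in morphine mice and from 45.2 to 91.8 CPM (median 62.8) in saline mice. For these cholinergic genes, the morphine mice lay within or near the range of the saline mice. Ache ranged from 85.1 to 130.2 CPM (median 98.6) in morphine mice and from 60.0 to 189 CPM (median 89.9) in saline mice. Prph ranged from 14.4 to 22.7 CPM (median 18.04) in morphine mice and from 10.9 to 34.9 CPM (median 17.7) in saline mice. Isl1 ranged from 1.21 to 2.54 CPM (median 1.74) in morphine mice and from 1.31 to 2.79 CPM (median 1.60) in saline mice. The groups overlapped for every member, and for Slc18a3, Ache, and Prph both the highest and the lowest mouse were saline mice.

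**Figure D1:**
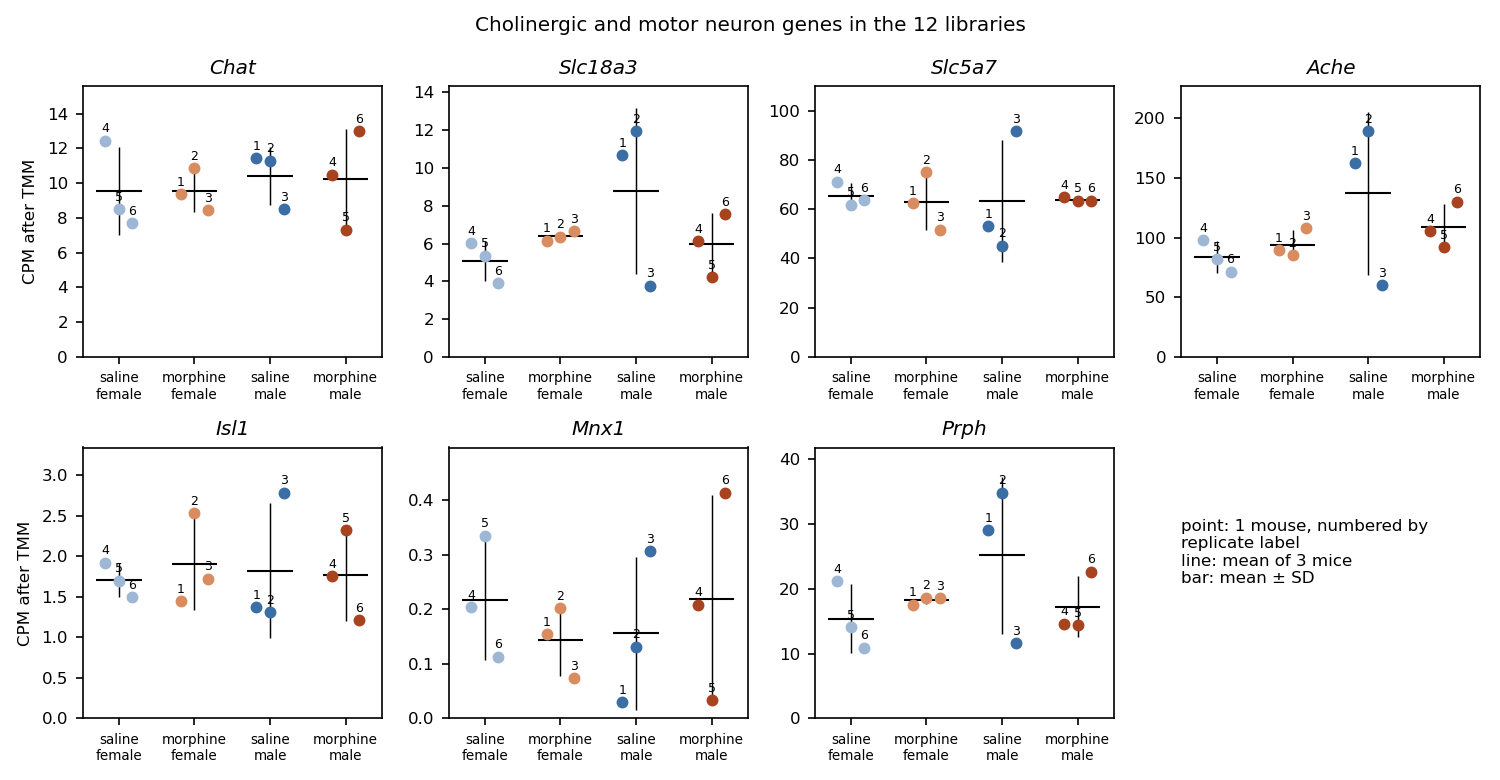
CPM after TMM scaling (y axis, from 0) of the 7 genes in each mouse of the 4 groups (x axis). Points are mice numbered by replicate label, horizontal lines are means, and vertical bars are mean ± SD (n = 3). Saline males 1 and 2 are high and saline male 3 is low in Slc18a3, Ache, and Prph, and Slc5a7 and Isl1 have saline male 3 highest.

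In the sex-combined fit, 0 of 6 tested members passed the thresholds for DE genes (unadjusted p under 0.05 and absolute log2 fold change over 0.26), beside 1.19% of all tested genes. The log2 fold change of morphine against saline was 0.00 (SE 0.16) for Chat, -0.11 (SE 0.27) for Slc18a3, -0.01 (SE 0.15) for Slc5a7, and -0.07 (SE 0.22) for Ache. It was 0.07 (SE 0.24) for Isl1 and -0.14 (SE 0.26) for Prph. Of the 6, 0 had an unadjusted p under 0.05, and 0 passed with DESeq2 or exactTest in this comparison or in either sex alone. For all 6 genes the Benjamini-Hochberg adjusted p of edgeR's quasi-likelihood test was 0.9999. A two-sided exact permutation test of mean log2 CPM gave p between 0.812 (Isl1) and 0.989 (Ache), where 0.00217 was the smallest p possible. Non-overlapping groups were found for 0 members and for 0.043% of all tested genes. In bulk tissue, fewer cells of a type and less RNA per cell cannot be told apart. Without the library labelled morphine male 6, again 0 of 6 members passed, and their log2 fold changes lay between -0.20 (Prph) and 0.17 (Isl1).

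Mnx1 did not pass the filter on low counts. Its counts were 1, 6, and 10 in saline males 1, 2, and 3, 7, 11, and 4 in saline females 4, 5, and 6, 5, 7, and 2 in morphine females 1, 2, and 3, and 7, 1, and 14 in morphine males 4, 5, and 6. The highest and the lowest library differed by 14 counts against 1, and both treatments held libraries with a single count. At this depth, a difference between groups in Mnx1 was not detectable. In the fits with no filter its log2 fold change was -0.01 (SE 0.56) in the sexes combined, -0.56 (SE 0.75) in females, and 0.49 (SE 0.83) in males, and its interaction was 1.07 (SE 1.07).

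The second question was whether the members differed within each sex. In females, Slc18a3 was at 6.00, 5.35, and 3.91 CPM in saline mice 4, 5, and 6 and at 6.15, 6.37, and 6.64 CPM in morphine mice 1, 2, and 3. All 3 morphine females lay above all 3 saline females, and the nearest mice of the groups were at 6.00 and 6.15 CPM. Slc18a3 was the only member whose groups did not overlap in females, beside 5.65% of all tested genes. Its log2 fold change was 0.33 (SE 0.18, edgeR adjusted p = 0.9998), and the exact permutation p was 0.1, the smallest that 3 mice against 3 can give.

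In the same females, Prph was at 21.2, 14.1, and 10.9 CPM with saline and at 17.6, 18.7, and 18.5 CPM with morphine. Saline female 4 lay above and the other 2 saline females lay below the 3 morphine females. Chat was at 12.4, 8.51, and 7.70 CPM with saline and at 9.38, 10.8, and 8.44 CPM with morphine, so that saline female 4 was also highest in Chat. The log2 fold changes in females were 0.24 (SE 0.20) for Prph, 0.16 (SE 0.13) for Ache, 0.15 (SE 0.27) for Isl1, 0.00 (SE 0.19) for Chat, and -0.06 (SE 0.13) for Slc5a7. In females 0 of 6 members passed the thresholds, beside 1.81% of all tested genes. Without saline female 4, 2 members passed: Slc18a3 rose by 0.45 (SE 0.19, edgeR adjusted p = 0.6069) and Prph by 0.53 (SE 0.14, adjusted p = 0.5822), with 1482 genes passing instead of 328.

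In males, Slc18a3 was at 10.7, 12.0, and 3.77 CPM in saline mice 1, 2, and 3 and at 6.12, 4.23, and 7.56 CPM in morphine mice 4, 5, and 6. Ache was at 162, 189, and 60.0 CPM with saline and at 105, 91.8, and 130.2 CPM with morphine. Prph was at 29.0, 34.9, and 11.6 CPM with saline and at 14.6, 14.4, and 22.7 CPM with morphine. For each of these genes, saline males 1 and 2 lay above and saline male 3 lay below every morphine male. Slc5a7 was at 53.2, 45.2, and 91.8 CPM with saline and at 64.8, 63.6, and 63.5 CPM with morphine. Isl1 was at 1.37, 1.31, and 2.79 CPM with saline and at 1.75, 2.33, and 1.21 CPM with morphine. Here saline male 3 was the highest of the 6 males. Chat was at 11.4, 11.3, and 8.49 CPM with saline and at 10.5, 7.31, and 13.0 CPM with morphine, and its group ranges overlapped.

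The log2 fold changes in males were -0.56 (SE 0.44) for Slc18a3, -0.55 (SE 0.40) for Prph, -0.33 (SE 0.39) for Ache, -0.06 (SE 0.40) for Isl1, -0.02 (SE 0.25) for Chat, and 0.00 (SE 0.27) for Slc5a7. In males 0 of 6 members passed the thresholds, beside 2.99% of all tested genes, and the edgeR adjusted p was 0.9999 for all 6. Groups did not overlap for 0 members, beside 9.1% of all tested genes. These values rested on single saline males. Without saline male 2, Slc18a3 was at -0.29 (SE 0.48), Prph at -0.25 (SE 0.42), and Ache at -0.04 (SE 0.41), and 0 members passed. Without saline male 1, they were at -0.40, -0.43, and -0.19, and without morphine male 5 at -0.31, -0.38, and -0.17. Without saline male 3, 4 members passed in males, each with an adjusted p under 0.05: Slc18a3 fell by 0.88 (SE 0.23, edgeR adjusted p = 0.04501), Prph fell by 0.85 (SE 0.21, adjusted p = 0.0362), Ache fell by 0.65 (SE 0.16, adjusted p = 0.03583), and Slc5a7 rose by 0.41 (SE 0.11, adjusted p = 0.0498). In that fit 5341 of 18652 tested genes passed the same thresholds, against 543 of 18166 with all 6 males, and the saline group held only saline males 1 and 2. Without the library labelled morphine male 6, 0 members passed in males, with Slc18a3 at -0.78 (SE 0.51).

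The effect of morphine was next compared between the sexes. The interaction of treatment and sex, the log2 fold change in males minus that in females, was -0.87 (SE 0.50) for Slc18a3, -0.77 (SE 0.49) for Prph, -0.48 (SE 0.44) for Ache, -0.19 (SE 0.49) for Isl1, 0.08 (SE 0.32) for Slc5a7, and 0.00 (SE 0.34) for Chat. Of the 6 members, 0 passed, beside 2.94% of all tested genes. With no filter on low counts, Slc18a3 (-0.89, SE 0.41) and Prph (-0.79, SE 0.38) passed, with edgeR adjusted p = 0.9999 for both, among 1665 of 37483 genes. Without saline male 3, 4 members passed the interaction, led by Slc18a3 at -1.25 (SE 0.30, edgeR adjusted p = 0.0227), and 4695 of 19472 genes passed, against 559 of 19027 with all mice.

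In saline mice, females were compared with males to show the levels without morphine. Slc18a3 was lower in females by the fit (log2 fold change -0.77, SE 0.35), as was Ache (-0.69, SE 0.31). Both passed the thresholds, with an edgeR adjusted p of 0.6386, and made up 2 of 6 members, beside 7.62% of all tested genes. Prph had the same fold change (-0.69, SE 0.35) and did not pass, and Chat was at -0.10 (SE 0.24). The females lay inside the range of the males for Slc18a3 and Ache, with saline males 1 and 2 above and saline male 3 below them. Both calls were lost without saline male 1 or 2, saline female 5 or 6, morphine female 2 or 3, or morphine male 4, and with scaling by total counts. Morphine mice bear on these calls because the fit estimated the spread over all 4 groups. Without saline male 3, Slc18a3 was at -1.17 (SE 0.22, edgeR adjusted p = 0.001714) and Ache at -1.08 (SE 0.16, adjusted p = 0.0003226), and 4 members passed among 7143 of 19472 genes. Without saline female 4, 3 members passed (1924 of 19481 genes), as with no filter (3018 of 37483 genes). With loess offsets for GC content and gene length, an alternative added after the data were seen, Slc18a3 was at -0.05 (SE 0.14) and Ache at -0.09 (SE 0.09), and 0 members passed. In the same comparison Tubb3, a neuronal tubulin, was at -0.99 (SE 0.39), and Hba-a1, a haemoglobin gene, was at -1.62 (SE 0.66). The muscle genes Acta1 (-2.86, SE 0.93), Tnnt3 (-2.73, SE 0.99), and Myh1 (-2.61, SE 0.99) also passed there. Summed muscle markers (7 genes) lay between 1.44 and 32.5 CPM and were highest in saline male 2, where Acta1 was at 11.1 CPM against 0.184 in saline male 3. The part of these other cell types in the values of the members was not tested.

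The levels of 6 members among mice went with the GC balance of the library, in a direction that followed the GC content of the member. The log2 levels of Slc18a3 (61.2% GC), Prph (60.8% GC), and Ache (58.7% GC) had a Pearson r of 0.95, 0.94, and 0.99 with the GC balance of the library, over 12 libraries. Chat (54.3% GC) had an r of 0.65. Isl1 (45.7% GC) and Slc5a7 (40.85% GC) had r of -0.71 and -0.80. The GC content of Slc18a3 was at or above that of 97.8% of tested genes, and that of Slc5a7 at or above that of 10.4%. Over all tested genes, the median r was 0.93 in the 10% richest in GC (57.5% GC or more), where Slc18a3, Prph, and Ache fall, and -0.72 in the 10% poorest. Chat, Isl1, and Slc5a7 fall in neither set, and genes of like GC content were not compared with them. Mnx1, with 58.7% GC, had an r of -0.27 at 1 to 14 counts. The balance was measured on the same libraries as the levels, so these r values are a description.

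**Figure D2:**
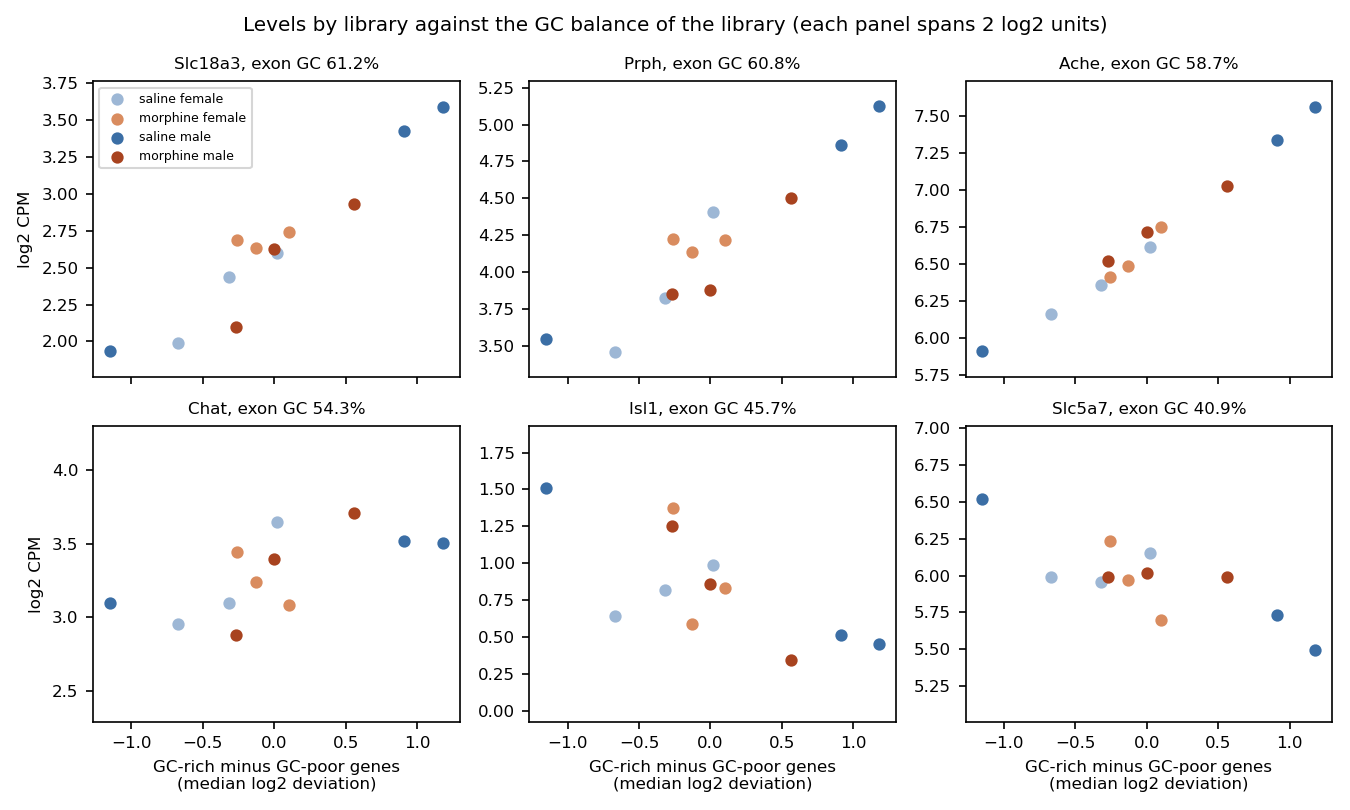
Log2 CPM of 6 genes (y axis, every panel spans the same 2 log2 units) against the GC balance of the library (x axis, median log2 deviation of the 10% GC-richest minus the 10% GC-poorest genes). Each point is 1 mouse, coloured by group. Ache, Slc18a3, and Prph rise with the balance (r = 0.99, 0.95, and 0.94), whereas Slc5a7 and Isl1 fall (r = -0.80 and -0.71).

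With loess offsets for GC content and gene length, the SD of the log2 level over the 12 libraries went from 0.47 to 0.10 for Ache, from 0.51 to 0.15 for Slc18a3, and from 0.50 to 0.17 for Prph. It went from 0.27 to 0.22 for Chat, from 0.26 to 0.17 for Slc5a7, and from 0.37 to 0.31 for Isl1. The median over all tested genes went from 0.27 to 0.20. In males, the log2 fold change with offsets was 0.01 (SE 0.08) for Ache, -0.12 (SE 0.15) for Slc18a3, and -0.14 (SE 0.11) for Prph, and 0 members passed. In females it was 0.03 (SE 0.09) for Ache, 0.16 (SE 0.14) for Slc18a3, and 0.09 (SE 0.15) for Prph, and 0 members passed. In the sexes combined, all 6 values lay between -0.03 (Prph) and 0.07 (Isl1). The interaction with offsets was -0.27 (SE 0.20) for Slc18a3 and -0.23 (SE 0.20) for Prph.

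**Figure D3:**
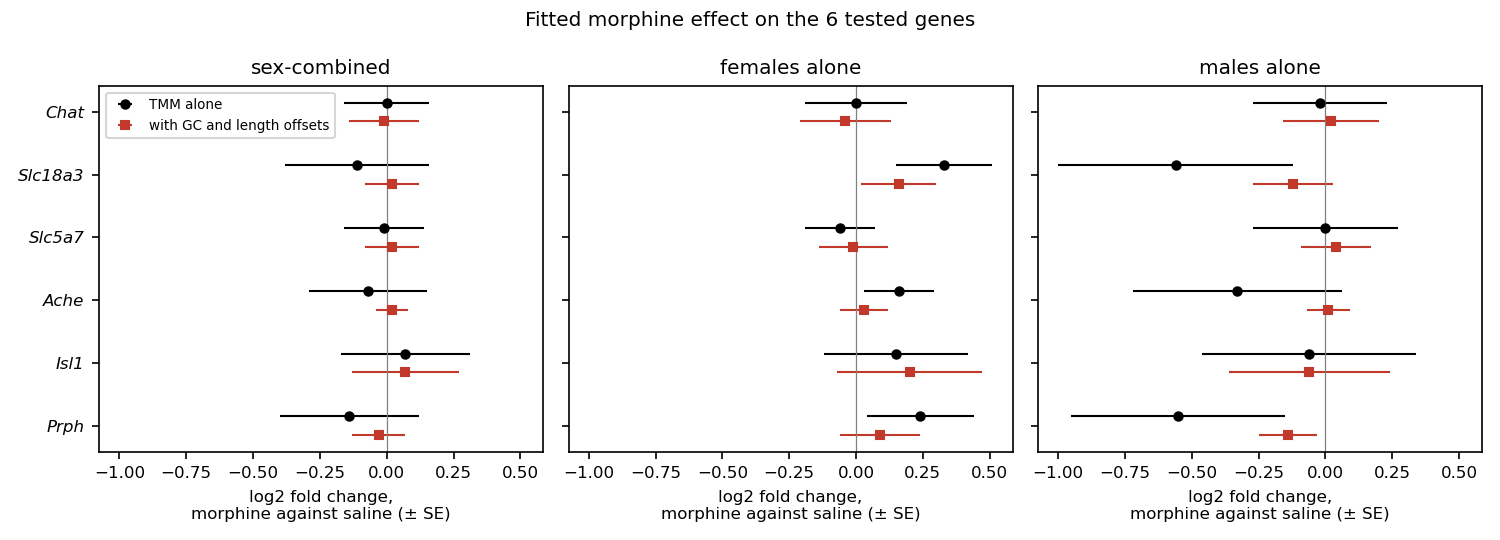
Log2 fold change of morphine against saline (x axis) with its SE for the 6 tested genes, in the sexes combined (6 mice against 6) and in each sex alone (3 against 3). Black circles are the fits with TMM alone and red squares the fits with GC and length offsets. With offsets, Ache in males moves from -0.33 (SE 0.39) to 0.01 (SE 0.08).

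Members were then compared with each other across the 12 mice, over 21 pairs. Slc18a3 and Prph had r = 0.96 (Spearman rho = 0.91), Slc18a3 and Ache r = 0.94 (rho = 0.87), and Ache and Prph r = 0.92 (rho = 0.86). Permutation tests with 100000 resamples gave p of 2e-05, 2e-05, and 4e-05, and 0.00021, 0.00021, and 0.00028 after Benjamini-Hochberg adjustment over the 21 pairs. These 3 pairs held without saline males 1 and 2, the mice farthest from the median of the first gene of each pair (r = 0.89, 0.84, and 0.79). They held within groups too, as residuals from the 4 group means (r = 0.94, 0.97, and 0.94). Slc5a7 and Ache had r = -0.80 (rho = -0.64, adjusted permutation p = 0.0112 for r and 0.0686 for rho), and r was -0.52 without saline males 2 and 3. In all, 10 of 21 pairs had an adjusted permutation p under 0.05 for r and 5 of 21 for rho, and 3 of 21 did so without the 2 farthest libraries.

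An r over 0.9 or under -0.9 was common for the GC-rich members. Ache reached it with 18.5% of the 18602 other tested genes, Slc18a3 with 13.0%, and Prph with 11.1%. Slc5a7 did so with 0.145%, Isl1 with 0.0108%, and Chat with 0% of genes. The genes with the highest r to Ache were Nckipsd (0.996), Hgs (0.995), and Vps51 (0.995), with 58.0% to 60.6% GC. Those to Slc18a3 were P4htm (0.983), Zfp628 (0.982), and Sphk1 (0.980), and those to Prph were S100a6 (0.979), Zmat5 (0.977), and Wfs1 (0.975). Closest to Slc5a7 were Pms2 (0.943), Oprk1 (0.939), which encodes the kappa opioid receptor, and Ptger3 (0.935). Closest to Isl1 were 6030458C11Rik (0.928), Shox2 (0.917), and Ergic2 (0.876), to Chat Usb1 (0.880), Nt5dc3 (0.876), and Nat8 (0.872), and to Mnx1 Klf10 (0.869), 4930550C14Rik (0.840), and Grhl2 (0.836).

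Chat and Slc5a7, the synthetic enzyme and the choline transporter of the same terminal, had r = -0.13 (rho = -0.06, permutation p = 0.698, adjusted p = 0.733) with TMM alone. With GC and length offsets they had r = 0.90 (rho = 0.88, permutation p = 9e-05, adjusted p = 0.00135 over the 15 pairs of tested members). On the offset scale, Chat was at 3.66 and Slc5a7 at 6.23 log2 CPM in saline female 4, at 3.53 and 6.15 in morphine female 2, at 3.53 and 6.18 in morphine male 6, and at 3.49 and 6.21 in saline male 3. These 4 mice were the highest in both genes, and the other 8 lay between 2.92 and 3.37 for Chat and between 5.76 and 6.00 for Slc5a7. Mice of all 4 groups were thus among the highest. The r was 0.97 without saline female 4 and morphine male 5 and 0.93 as residuals from the 4 group means. An r on this scale without the library labelled morphine male 6 was not computed. Ranked by r to Slc5a7 among 18607 other genes, Chat went from place 10440 to place 1 with the offsets, and ranked by r to Chat, Slc5a7 went from place 10233 to place 2. This was seen under offsets that were added after the data were seen, and 1 of 15 pairs had an adjusted p under 0.05 there. With the same offsets Slc18a3 and Ache had r = 0.04, Ache and Prph r = -0.02, and Slc18a3 and Prph r = 0.57 (adjusted permutation p = 0.146).

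**Figure D4:**
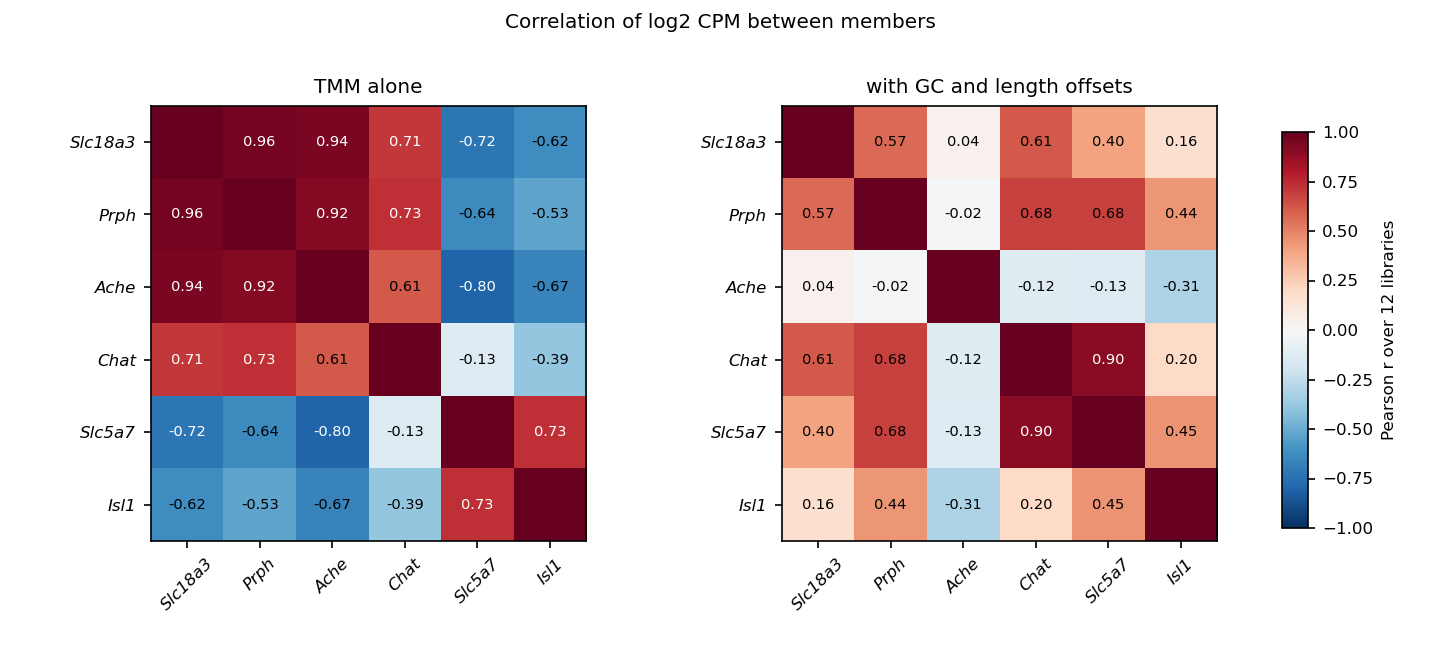
Pearson r of log2 CPM over 12 libraries between 6 members (axes), with TMM alone (left) and with GC and length offsets (right), red positive and blue negative. The block of Slc18a3, Prph, and Ache on the left (0.92 to 0.96) has r between -0.02 and 0.57 on the right, and Chat with Slc5a7 goes from -0.13 to 0.90.

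**Figure D5:**
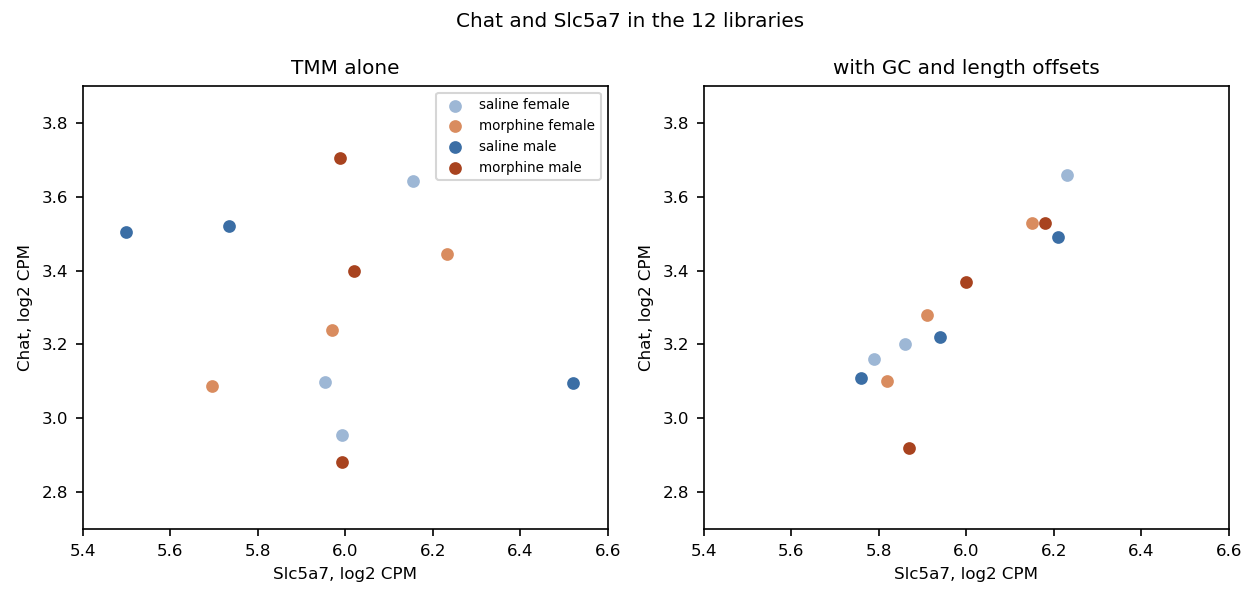
Log2 CPM of Chat (y axis) against Slc5a7 (x axis) in the 12 mice, coloured by group, with TMM alone (left) and with GC and length offsets (right). Both panels have the same axes, and r is -0.13 on the left and 0.90 on the right.

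Slc18a3 and Chat share a locus, and their counts were set against each other. Of the counts on either gene, Slc18a3 took 48.3% (95% exact binomial interval 44.7 to 52.0) and 51.4% (48.4 to 54.5) in saline males 1 and 2 and 30.8% (26.3 to 35.5) in saline male 3. In the 3 saline females it took 32.5% to 38.6%, in the 3 morphine females 37.0% to 44.0%, and in the 3 morphine males 36.7% to 36.9%. Saline male 3 and saline males 1 and 2 were thus at the ends of the 12 libraries and their intervals did not overlap, while the morphine males nearly coincided. The intervals cover counting error only. Saline males 1 and 2 also had the highest GC balance (0.91 and 1.18) and saline male 3 the lowest (-1.15). Slc18a3 has 61.2% GC and Chat 54.3%. The share was not computed with offsets, and the part of the GC balance in it was not tested.

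Other genes of these neurons were read from 4 lists. Over all tested genes, the share that passed ran from 1.19% in the sexes combined to 7.62% in females against males of saline mice. Of 8 genes for the supply and breakdown of acetylcholine, 0 passed in any of the 5 comparisons, with the sex-combined log2 fold change of Acly, which makes acetyl-CoA, at -0.03 (SE 0.10) and of Slc44a1, a choline transporter, at -0.07 (SE 0.08). The median of this list was 0.00 in the sexes combined, beside -0.02 for all genes. Prima1, the membrane anchor of acetylcholinesterase, was at -0.27 (SE 0.18), and its 59.3% GC was near that of Ache. It was at 14.0 and 16.3 CPM in saline males 1 and 2 and at 6.59 CPM in saline male 3, the same order as Ache. Of 9 tested motor neuron transcription factors, 0 passed in any comparison, and Isl2 was untested at no more than 0.268 CPM. Of 9 motor neuron peptides and effectors, 1 passed, in the sexes combined, beside 1.19% of all tested genes. It was Mmp9, a protease of fast motor neurons, which fell by 0.36 (SE 0.15, edgeR adjusted p = 0.9999). The 4 neuronal intermediate filaments, relatives of Prph, had 0 calls in any comparison, with sex-combined log2 fold changes between -0.09 (Nefl) and -0.02 (Ina).

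Some markers of other cells passed the thresholds between morphine and saline. Of 4 cerebellar granule cell genes, 3 passed as higher with morphine in the sexes combined, beside 1.19% of all tested genes. These were Gabra6 (0.99, SE 0.44), Cbln3 (0.77, SE 0.33), and Fat2 (0.39, SE 0.17). The same 3 passed in males, beside 2.99% of all tested genes. In females 0 of the 4 passed, and Fat2 was at -0.06 (SE 0.15). Morphine male 5 had Gabra6 at 19.1 CPM and Cbln3 at 21.7 CPM, against at most 8.66 and 10.4 CPM in the other mice. The summed level of the 4 genes lay between 19.0 and 76.8 CPM. The muscle gene Myh8 also passed as higher in the sexes combined (0.74, SE 0.28), at no more than 0.852 CPM. None of these had an edgeR adjusted p under 0.05, and their part in the values of the members was not tested. Isl1 and Prph are also genes of sensory ganglion neurons, of whose 8 markers Mrgprd and Prdm12 did not exceed 0.0656 and 0.0875 CPM, and the sum lay between 5.21 and 10.6 CPM. Of the 4 tested sensory markers, 0 passed in a comparison of morphine with saline.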

How the data were processed

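Poly-A RNA of 12 brainstems was sequenced as single-end reads. The authors used Trimmomatic for trimming, STAR for alignment to mm10, and featureCounts for counting on exons. The deposited values are raw counts per gene, and the strand setting is not given in the sources used here. Genes were fitted with edgeR 4.0.16 (quasi-likelihood test, TMM, filterByExpr) in R 4.3.3 over the whole table, with a sex term where the sexes were combined, in each sex alone, and a model of 4 group means for the interaction and for saline mice. The thresholds for DE genes (p under 0.05 before adjustment, log2 fold change beyond 0.26 in size) follow the study's methods. Log levels used a prior count of 2. Dam was not used. Replicates are mice, and p values of the comparisons of morphine with saline measure the spread between 3 or 6 of them per group. In the model of 4 group means, the spread was estimated over all 12 mice, also for the comparison of saline mice. Correlations used 12 libraries.

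The named genes were the 7 members, list genes that passed, the 3 genes closest to each member, and the sex-check genes, and a few further list genes were named after their values were seen. A gene that this rule picks is not reported here. Members and lists were chosen with earlier results of these data known. Alternatives were DESeq2 1.42.0 (Wald test, size factors), total-count scaling, exactTest, other filters, no sex covariate, the replicate block, the contrast from all 12 mice, and leaving out each mouse. Loess offsets (span 0.5) for GC content and exon length were added after the data were seen. Positions and lengths came from GENCODE M21 (GRCm38). The fits were tested on simulated data.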

Additional observations from a re-analysis of the deposited data

Results flagged for a closer look

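Fat2, a cadherin of cerebellar granule cells, passed the thresholds for DE genes in the interaction of treatment and sex, beside 2.94% of all tested genes. The log2 fold change in males minus that in females was 0.89 (SE 0.23), with an edgeR adjusted p of 0.9846. Fat2 lay between 19.2 and 24.7 CPM in morphine males and between 11.5 and 16.4 CPM in the other 9 mice. The lowest of the morphine males was the library labelled morphine male 6, and a Fat2 value without it is not given here. Of the 6 tested members, 0 passed the same test, and in 14 groups of 6 mice (7 members in morphine and in saline mice) 0 had a mouse that stood apart by Dixon's test.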

How the results depend on the processing

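The number of members that passed was 0 in the sex-combined comparison under all alternatives run. In females it was 0 to 2 when 1 mouse was left out, in males 0 to 4, in the interaction 0 to 4, and in saline mice 0 to 4. The highest counts came without saline female 4 in females (1482 of 18631 genes passing) and without saline male 3 in males (5341 of 18652), the interaction (4695 of 19472), and saline mice (7143 of 19472). The interaction gave 2 with no filter, and the comparison of saline mice 0 with total counts and 0 with GC and length offsets. Leaving out 1 mouse gave log2 fold changes in the sexes combined of -0.25 to 0.06 for Slc18a3, -0.22 to 0.09 for Ache, -0.29 to 0.03 for Prph, -0.06 to 0.26 for Isl1, and -0.11 to 0.13 for Slc5a7. In females Isl1 ran from -0.12 to 0.32 and Slc5a7 from -0.20 to 0.06, and in males Chat ran from -0.24 to 0.23, Isl1 from -0.27 to 0.42, Slc18a3 from -0.88 to -0.29, Prph from -0.85 to -0.25, and Ache from -0.65 to -0.04. In the interaction Slc5a7 ran from -0.12 to 0.43 and Isl1 from -0.44 to 0.23, and in saline mice Slc5a7 from -0.14 to 0.40 and Isl1 from -0.28 to 0.34. With total counts, Slc5a7 in the sexes combined was 0.04, and Chat and Isl1 in males were 0.10 and 0.07. With the offsets, Slc18a3, Slc5a7, and Ache in the sexes combined were each 0.02, Chat and Ache in males 0.02 and 0.01, and Chat and Slc5a7 in saline mice 0.08 and -0.01. Pairs with an adjusted p under 0.05 went from 10 to 3 without the farthest libraries and to 1 with the offsets. With median transcript length 4 of 7 ranks were kept. The cause was not tested.

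Scaling by total counts moved the median of all genes in males from -0.06 to 0.06 and the higher share of their DE genes from 64.3% to 91.3%. In the interaction that share went from 54.7% to 81.2%, and in the sexes combined from 51.1% to 72.7%. With the replicate block 0 members passed and Slc5a7 was 0.02. Same-numbered mice had r from -0.36 to 0.18. Mice of different numbers were not compared, so these values cannot decide whether the numbers pair the mice.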
